A study of Mus musculus with 8 samples.

Results

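Enzyme genes of the mitochondrial tricarboxylic acid (TCA) cycle were followed across the RNA sequencing of 32D cells, an IL-3-dependent mouse myeloid line. The members were taken by name, and all 9 of 9 were found among the 56748 genes of the deposited table, namely Cs, Idh3a, Idh3b, Idh3g, Ogdh, Suclg1, Sucla2, Fh1 and Mdh2. The libraries came from GLUT1/3 double knockout (dKO) and GLUT1/3 WT clones, sequenced to learn how gene expression changes when glucose uptake is impaired. The cells carried introduced murine Jak2WT or the constitutively active murine Jak2V617F. In each Jak2 background there were 2 GLUT1/3 WT clones and 2 dKO clones, numbered 1 and 3, which gives 4 groups and 8 libraries. The dKO clones were single-cell derived after CRISPR-Cas editing of Slc2a1 (GLUT1) and Slc2a3 (GLUT3), so each library is 1 clone, and the spread between the 2 clones of a group includes differences between clones. The paper lists the same GLUT1 deletion size for all dKO clones of a background. Whether these clones share 1 GLUT1-edited founder cell is not stated, so their independence is not known. All groups were kept for 24 h without pyruvate, in RPMI-1640 medium containing 10% serum, 2 ng/ml IL-3, 1 mM glutamine and 5 mM glucose.

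The TCA cycle condenses acetyl-CoA with oxaloacetate and oxidises the resulting citrate stepwise back to oxaloacetate, passing electrons to the respiratory chain. In haematopoietic cells its carbon comes from glucose through pyruvate dehydrogenase, from fatty acids and from glutamine, which enters as 2-oxoglutarate. Its intermediates also leave the cycle for the synthesis of aspartate, lipids and haem, the last of which starts from succinyl-CoA.

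The 9 genes were expressed in every library. FPKM, the reads of a gene scaled by its length and by the depth of the library, compares levels between genes per length. On this scale the members ranged from 14.8 for Suclg1 to 78.2 for Mdh2, and each was represented by 1647 to 13328 reads per library out of 16846011 to 48884329. Their levels moved within a narrow band, since the highest library exceeded the lowest by 1.31-fold for Idh3g to 1.72-fold for Sucla2, with a median of 1.49-fold. The same median was 1.53-fold over 2302 tested genes in the same range of mean FPKM that also reached an FPKM of 1 in every library, a filter that removes genes with a low value in any library. The summed FPKM of the 9 genes lay between 290 and 358, lowest in a Jak2V617F dKO clone and highest in a Jak2WT GLUT1/3 WT clone.

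**Figure D1:**
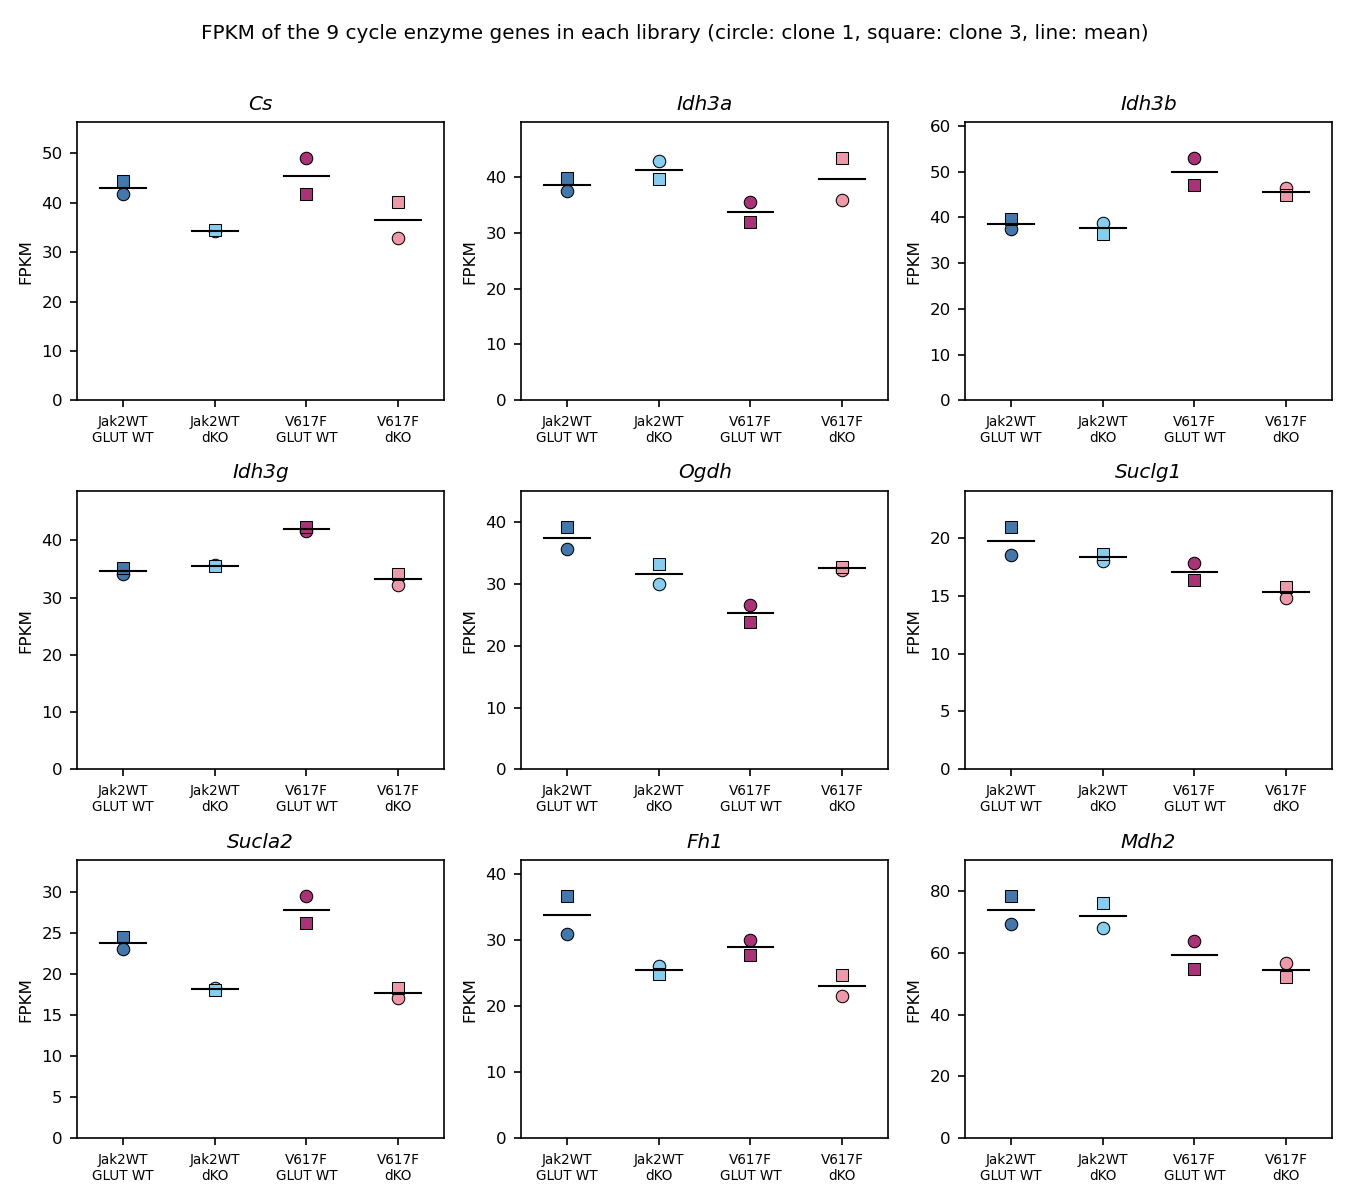
FPKM (y axis, starting at 0) of the 9 enzyme genes in each of the 8 libraries, by group on the x axis, with circles for clone 1, squares for clone 3 and a line at the group mean. Sucla2 is lower in all 4 dKO clones (17.1 to 18.4) than in all 4 GLUT1/3 WT clones (23.1 to 29.5), and Ogdh is lowest in the 2 Jak2V617F GLUT1/3 WT clones.

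The edited genes were checked first. Slc2a1 fell in the dKO clones of both backgrounds, by 2.2 on the log2 scale in Jak2WT and by 1.90 in Jak2V617F. Both Slc2a1 calls held with each of the 8 libraries left out. Slc2a3 fell by 2.39 in Jak2V617F (adjusted p = 0.0115), and its log2 fold change in Jak2WT was -1.71 (adjusted p = 0.0612, and 0.0199 with voom). That value was -0.92 without dKO clone 1 (adjusted p = 0.219) and -2.49 without dKO clone 3 (adjusted p = 0.0358), whose Slc2a3 levels were 16.0 and 49.5 FPKM. The Slc2a3 call in Jak2V617F was lost without GLUT1/3 WT clone 1 or dKO clone 3, with adjusted p of up to 0.0602, and with no filter on low values (adjusted p = 0.0557). Jak2, whose endogenous and introduced reads cannot be told apart here, was lower in Jak2V617F than in Jak2WT by -0.84 on the log2 scale in GLUT1/3 WT clones (adjusted p = 0.00120) and by -0.54 in dKO clones (adjusted p = 0.00878), and the latter call was lost without Jak2WT dKO clone 3 (adjusted p = 0.0603). Markers of other blood cells also differed between the groups. The summed FPKM of 8 erythroid markers was 94.0 to 112 in Jak2WT GLUT1/3 WT, 246 to 290.5 in Jak2WT dKO, 553 to 910 in Jak2V617F GLUT1/3 WT and 2582 to 4679 in Jak2V617F dKO, carried by globins, while Alas2 stayed at or below 0.227. Of the 7 erythroid markers that were tested, 2 rose in Jak2WT dKO, 5 rose and 1 fell in Jak2V617F dKO, and 5 and 6 were higher in Jak2V617F than in Jak2WT without and with the knockout, where 13.7%, 29.9%, 30.3% and 17.1% of all tested genes were called in either direction. Hba-a2 was at most 0.42 FPKM in Jak2WT clones, and Hbb-bs and Hbb-bt at most 0.075 and 0.574 in Jak2WT GLUT1/3 WT clones. They passed the filter of an FPKM of 1 in 2 or more libraries only through groups where they were high. Their part in these counts is therefore not independent of the filter. The summed FPKM of 10 myeloid progenitor markers was 219 to 247 in Jak2WT GLUT1/3 WT clones and 89.1 to 92.0 in Jak2V617F dKO clones, with 160 to 201 in the other groups. Most of this sum was Csf2rb, an IL-3 receptor subunit, at 162 to 190 FPKM in Jak2WT GLUT1/3 WT and 48.9 to 55.4 in Jak2V617F dKO clones, while Il3ra was at 6.61 to 6.83 and 7.99 to 8.89. Of the 5 myeloid progenitor markers tested, 1 fell in Jak2WT dKO and 3 fell in Jak2V617F dKO. Between the backgrounds 2 were higher in Jak2V617F among GLUT1/3 WT clones, and 2 were lower among dKO clones. The shares of all tested genes called were 13.7%, 29.9%, 30.3% and 17.1% in the same order. Of the 10 listed myeloid progenitor markers, Mpo, Elane and Ctsg stayed at or below 0.203 and Cebpa and Kit were listed at 0 throughout, whereas Prtn3, Spi1, Csf2rb, Il3ra and Ptprc were detected. A listed 0 may mean that a gene was not counted, since Aco1, which most cells express, was also listed at 0 in all 8 libraries. The summed FPKM of 7 mast cell and basophil markers was 121 to 222, and that of 6 lymphoid markers at most 0.708. Of the mast cell and basophil markers only Cpa3 and Gata2 were tested. Cpa3 was at most 1.67 FPKM in Jak2V617F clones and passed that filter through Jak2WT clones, so its difference is not independent of the filter. Cpa3 was lower in Jak2V617F (log2 fold changes of -5.82 and -5.47), whereas Gata2 was at 123 to 124 FPKM in Jak2WT and 156 to 163 in Jak2V617F GLUT1/3 WT clones (log2 fold change 0.37, unadjusted p = 0.0298, adjusted p = 0.0806 in limma). The part of these cell-state differences in the enzyme results was not tested, and in bulk RNA fewer cells of a type and less RNA per cell cannot be told apart.

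Tests used limma on log2(FPKM + 1) with all 8 libraries and Benjamini-Hochberg adjustment over the 11818 genes that reached an FPKM of 1 in 2 or more libraries, and a gene was called at an adjusted p under 0.05. All 9 enzymes passed this filter. In Jak2WT, 1 of the 9 was called between dKO and GLUT1/3 WT clones, beside 13.7% of all tested genes. In Jak2V617F, 3 of 9 were called in the same contrast, beside 29.9%. Between Jak2V617F and Jak2WT, 3 of 9 were called in GLUT1/3 WT clones, beside 30.3%, and 0 of 9 in dKO clones, beside 17.1%. In that last contrast limma gave an unadjusted p under 0.05 for 3 of 9, and voom on recovered reads called 2. The difference between the dKO effects of the 2 backgrounds, the interaction, was called for 1 of 9, beside 10.6%. As a share these counts lay near or below those of all genes. The clones of the compared groups did not overlap in FPKM for 5, 8, 8 and 5 of the 9 enzymes in the 4 contrasts, where this held for 66.2%, 64.3%, 69.4% and 60.6% of tested genes. The contrasts share groups and are therefore not independent of each other. With 2 clones a group, an exact permutation test of a single contrast cannot go below p = 0.33.

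**Figure D2:**
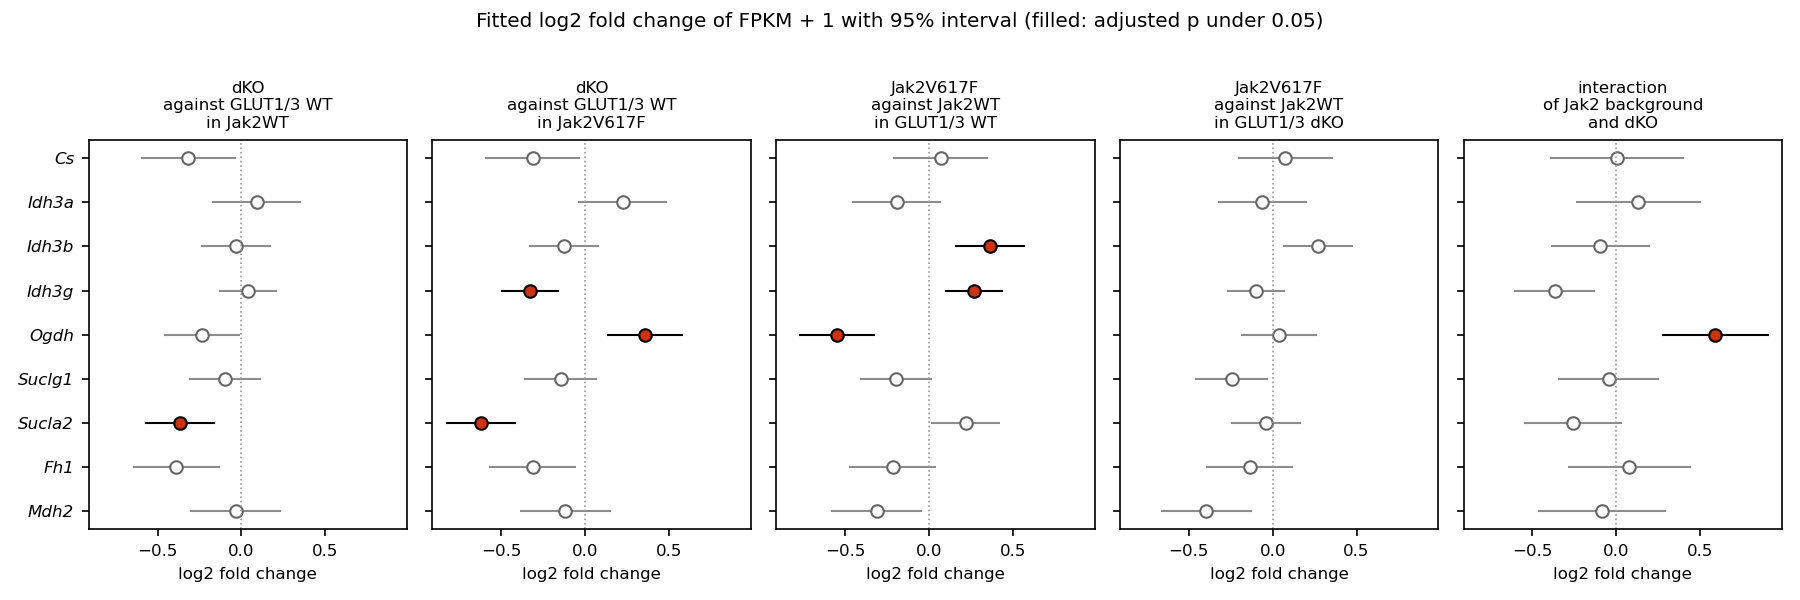
Fitted log2 fold change of FPKM + 1 (x axis) with its 95% interval for the 9 enzyme genes (y axis) in the 4 contrasts and the interaction, with filled points for an adjusted p under 0.05. Sucla2 is the gene filled in both dKO contrasts, and Ogdh is filled in 3 panels with opposite signs for the dKO contrast and the Jak2V617F contrast.

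Sucla2, which encodes the ADP-forming beta subunit of succinyl-CoA ligase, was called in both knockout contrasts and was lower in the dKO clones of each background. The gene lies on chromosome 14 (mm39, chr14:73762759-73833582, plus strand). In Jak2WT its FPKM was 23.1 and 24.5 in the GLUT1/3 WT clones and 18.4 and 18.1 in the dKO clones. In Jak2V617F it was 29.5 and 26.3 in the GLUT1/3 WT clones and 17.1 and 18.4 in the dKO clones. No dKO clone reached the level of any GLUT1/3 WT clone, and the dKO clones of the 2 backgrounds overlapped. Sucla2 fell by 0.36 on the log2 scale in Jak2WT (SE 0.086, adjusted p = 0.0348) and by 0.62 in Jak2V617F (SE 0.086, adjusted p = 0.00258). The difference between the 2 effects was -0.26 (95% interval -0.54 to 0.03, adjusted p = 0.202). The Jak2V617F call held in each of 18 alternative fits, with an adjusted p of at most 0.0295. The Jak2WT call was lost with no filter on low values (adjusted p = 0.0662), with a replicate block (adjusted p = 0.0573) and without either GLUT1/3 WT clone or either dKO clone of that background (adjusted p = 0.135 to 0.186), although the log2 fold change stayed between -0.46 and -0.32.

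The partner subunits of succinyl-CoA ligase had other patterns than Sucla2. Suclg1 encodes the alpha subunit that pairs with either beta subunit, and Suclg2, which is not among the 9, encodes the GDP-forming beta subunit. Suclg1 had 18.6 and 20.9 FPKM in Jak2WT GLUT1/3 WT, 18.0 and 18.6 in Jak2WT dKO, 17.8 and 16.3 in Jak2V617F GLUT1/3 WT, and 14.8 and 15.8 in Jak2V617F dKO clones. Its level was lowest in the Jak2V617F dKO clones, and in Jak2WT the clones of the 2 genotypes overlapped. None of its contrasts was called in the limma fit, with log2 fold changes of -0.25 to -0.10 and adjusted p of 0.106 to 0.488. Between Jak2V617F and Jak2WT GLUT1/3 WT clones Suclg1 passed when libraries were scaled to the same summed FPKM (-0.34, adjusted p = 0.0137) and with voom on recovered reads (-0.31, adjusted p = 0.0222). Suclg2 had 26.3 and 28.6 FPKM in Jak2WT GLUT1/3 WT, 32.1 and 29.03 in Jak2WT dKO, 33.1 and 29.2 in Jak2V617F GLUT1/3 WT, and 21.6 and 23.3 in Jak2V617F dKO clones. It was thus low in the Jak2V617F dKO clones alone. Suclg2 fell by 0.45 on the log2 scale with the knockout in Jak2V617F (adjusted p = 0.0137), had a log2 fold change of 0.15 in Jak2WT (adjusted p = 0.343), and the 2 effects differed by -0.60 (adjusted p = 0.0379). The Suclg2 call in Jak2V617F was lost without GLUT1/3 WT clone 1 or dKO clone 1 of that background (adjusted p of up to 0.0673) and in a fit on the 4 Jak2V617F libraries alone (adjusted p = 0.0587). The difference was lost without any 1 of the 4 Jak2WT clones or those same 2 clones (adjusted p of up to 0.138), and with no filter, no intensity trend or a replicate block (adjusted p of up to 0.0857).

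A ratio of FPKM within a library does not depend on how the library was scaled. The Sucla2 to Suclg2 ratio was 0.879 and 0.857 in Jak2WT GLUT1/3 WT clones, 0.573 and 0.625 in Jak2WT dKO clones, 0.892 and 0.900 in Jak2V617F GLUT1/3 WT clones, and 0.791 and 0.788 in Jak2V617F dKO clones. All 4 dKO clones lay below all 4 GLUT1/3 WT clones. The log2 ratio was lower by a mean of -0.36 in dKO clones (two-sided exact permutation test of 4 against 4, p = 0.0286, the smallest this design gives), but after adjustment over 8 ratio tests the p-value was 0.114. Between the Jak2 backgrounds the same log2 ratio differed by 0.22 (exact permutation p = 0.286, adjusted p = 0.381).

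**Figure D3:**
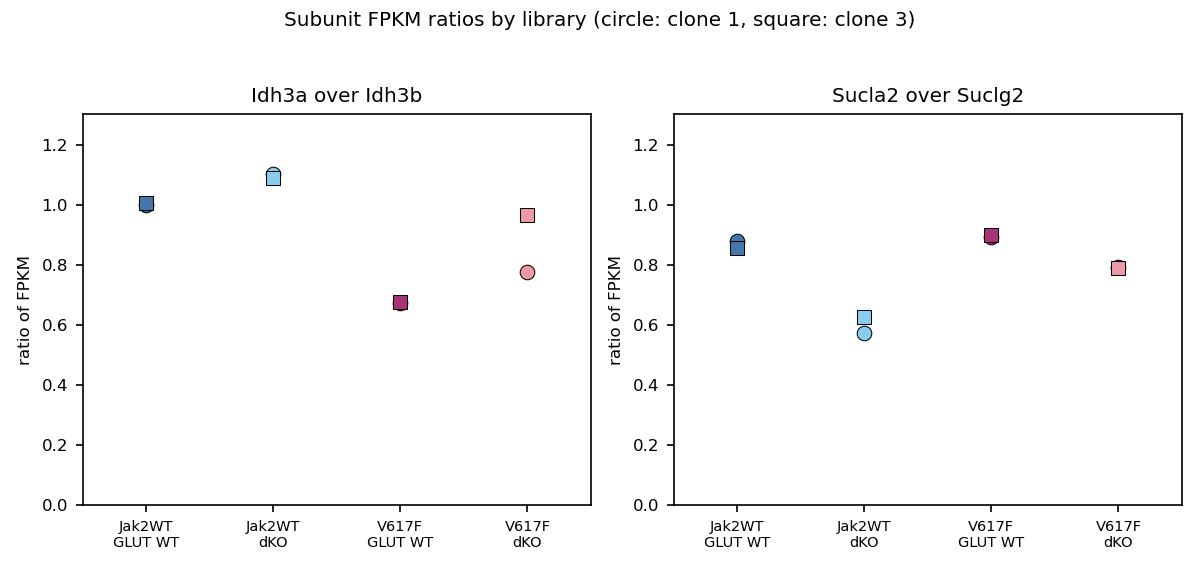
FPKM ratio (y axis, starting at 0) of Idh3a to Idh3b and of Sucla2 to Suclg2 in each library, by group on the x axis, with circles for clone 1 and squares for clone 3. The Idh3a to Idh3b ratio is lower in the 4 Jak2V617F clones (0.672 to 0.964) than in the 4 Jak2WT clones (0.998 to 1.10), and the Sucla2 to Suclg2 ratio is lower in the 4 dKO clones (0.573 to 0.791) than in the 4 GLUT1/3 WT clones (0.857 to 0.900).

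Ogdh, the E1 subunit of the 2-oxoglutarate dehydrogenase complex that converts 2-oxoglutarate to succinyl-CoA, was the enzyme whose dKO effect differed between backgrounds. It lies on chromosome 11 (mm39, chr11:6241633-6306642, plus strand). Its FPKM was 35.6 and 39.2 in Jak2WT GLUT1/3 WT clones and 30.05 and 33.3 in Jak2WT dKO clones. In Jak2V617F it was 26.6 and 23.9 in GLUT1/3 WT clones and 32.3 and 32.8 in dKO clones. The Jak2V617F GLUT1/3 WT clones were thus below all 6 other libraries, and the dKO clones of both backgrounds overlapped. Between Jak2V617F and Jak2WT in GLUT1/3 WT clones, Ogdh was lower by -0.55 on the log2 scale (SE 0.094, adjusted p = 0.00555), a call that held in all 18 alternative fits (adjusted p of at most 0.0482). In dKO clones the same contrast was 0.04 (95% interval -0.18 to 0.26, adjusted p = 0.810).

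With the knockout, Ogdh rose by 0.36 on the log2 scale in Jak2V617F (adjusted p = 0.0269), whereas its log2 fold change in Jak2WT was -0.23 (adjusted p = 0.138), which passed with the same summed FPKM (-0.33, adjusted p = 0.0354) and with voom (-0.30, adjusted p = 0.0338). The difference between these effects was 0.59 (SE 0.133, 95% interval 0.28 to 0.90, adjusted p = 0.0362). The Jak2V617F rise was lost without GLUT1/3 WT clone 3 (adjusted p = 0.111), without dKO clone 1 (adjusted p = 0.0693) or without dKO clone 3 (adjusted p = 0.0787), and also in a fit on the 4 Jak2V617F libraries alone (adjusted p = 0.0806) and with no filter on low values (adjusted p = 0.0536). The difference lost its call whichever of the 8 clones was left out (adjusted p = 0.0575 to 0.132), with an unchanged sign and a size of 0.51 to 0.67, and also with no filter (adjusted p = 0.0791), no intensity trend (adjusted p = 0.0502) or a replicate block (adjusted p = 0.0551).

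The other subunits of the 2-oxoglutarate dehydrogenase complex had patterns of their own. Dlst, the E2 succinyltransferase, and Mrps36, an adaptor of the complex, were not called in any contrast of the limma fit, with log2 fold changes of 0.02 to 0.06 for Dlst and -0.15 to -0.05 for Mrps36. Dld, the E3 dihydrolipoyl dehydrogenase shared with pyruvate dehydrogenase, had 80.5 and 83.0 FPKM in the Jak2V617F GLUT1/3 WT clones and 49.2 to 61.3 in the other 6 libraries. Dld was therefore highest where Ogdh was lowest. Dld was higher by 0.50 on the log2 scale in Jak2V617F than in Jak2WT GLUT1/3 WT clones (adjusted p = 0.00529) and fell by 0.53 with the knockout in Jak2V617F (adjusted p = 0.00429). Both Dld calls held with each of the 8 libraries left out.

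Idh3a, Idh3b and Idh3g encode the catalytic alpha subunit and the beta and gamma subunits of the NAD-dependent isocitrate dehydrogenase, which oxidises isocitrate to 2-oxoglutarate. Idh3b (chr2:130121229-130126467 in mm39, minus strand) had 37.4 and 39.6 FPKM in Jak2WT GLUT1/3 WT, 38.9 and 36.4 in Jak2WT dKO, 52.9 and 47.1 in Jak2V617F GLUT1/3 WT, and 46.3 and 44.9 in Jak2V617F dKO clones. All 4 Jak2V617F clones lay above all 4 Jak2WT clones. In GLUT1/3 WT clones Idh3b was higher in Jak2V617F by 0.37 on the log2 scale (SE 0.087, adjusted p = 0.0180), and in dKO clones by 0.27, which did not pass (adjusted p = 0.0745). The latter passed with libraries scaled by the median ratio (0.30, adjusted p = 0.0370), scaled to the same summed FPKM (0.31, adjusted p = 0.0155) and with voom (0.33, adjusted p = 0.0122). The call in GLUT1/3 WT clones was lost without Jak2WT GLUT1/3 WT clone 1 (adjusted p = 0.114) or clone 3 (adjusted p = 0.0692), or without Jak2V617F GLUT1/3 WT clone 1 (adjusted p = 0.0816). Neither knockout contrast of Idh3b was called, at -0.03 and -0.13.

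Idh3g (chrX:72822569-72830503 in mm39, minus strand) had 34.1 and 35.1 FPKM in Jak2WT GLUT1/3 WT clones and 35.7 and 35.4 in Jak2WT dKO clones. It had 41.6 and 42.3 in Jak2V617F GLUT1/3 WT clones and 32.3 and 34.1 in Jak2V617F dKO clones. The 2 Jak2V617F GLUT1/3 WT clones stood above the other 6, which ranged from 32.3 to 35.7. Idh3g fell by 0.33 on the log2 scale with the knockout in Jak2V617F (SE 0.071, adjusted p = 0.0136), and this held with each of the 8 libraries left out. In a fit on the 4 Jak2V617F libraries alone its adjusted p was 0.0780. Between Jak2V617F and Jak2WT GLUT1/3 WT clones Idh3g was higher by 0.27 (adjusted p = 0.0268), a call lost without any 1 of the 4 Jak2WT clones or either Jak2V617F GLUT1/3 WT clone (adjusted p = 0.0509 to 0.149). When libraries were scaled to the same summed FPKM that difference was 0.12 (adjusted p = 0.240), and with voom 0.17 (adjusted p = 0.139). The difference between its dKO effects, -0.37, did not pass (adjusted p = 0.0596).

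Idh3a, the catalytic subunit, was not called in any contrast of the limma fit. It had 37.4 and 39.8 FPKM in Jak2WT GLUT1/3 WT, 42.8 and 39.6 in Jak2WT dKO, 35.6 and 31.8 in Jak2V617F GLUT1/3 WT, and 35.9 and 43.3 in Jak2V617F dKO clones. Its lowest values were those of the Jak2V617F GLUT1/3 WT clones, the group in which Idh3b and Idh3g were highest. With libraries scaled to the same summed FPKM and with voom, Idh3a passed as lower in Jak2V617F than in Jak2WT GLUT1/3 WT clones (-0.34 and -0.31, adjusted p = 0.0298 and 0.0420) and as higher with the knockout in Jak2V617F (0.31 and 0.32, adjusted p = 0.0443 and 0.0345). The latter change was 0.22 in the limma fit and ranged from 0.09 to 0.35 over the alternative fits. The FPKM ratio of Idh3a to Idh3b was 0.998 to 1.10 in the Jak2WT clones and 0.672 to 0.964 in the Jak2V617F clones, without overlap. The log2 ratio was lower in Jak2V617F by a mean of -0.46 (two-sided exact permutation test of 4 against 4, p = 0.0286), which was 0.114 after adjustment over the 8 ratio tests. This test exchanged libraries across genotypes, so the limit given for the Sucla2 to Suclg2 ratio applies here too. By genotype the log2 ratio of Idh3a to Idh3b was 0.24 higher in dKO clones (exact permutation p = 0.229). The log2 ratio of Idh3a to Idh3g differed by 0.31 by genotype and by -0.22 by background (exact permutation p = 0.0857 and 0.343), and that of Idh3b to Idh3g by 0.07 and 0.24 (exact permutation p = 0.629 and 0.0571). After adjustment these 5 p-values were 0.152 to 0.629. Within GLUT1/3 WT clones alone the Idh3a to Idh3b ratio was 0.998 and 1.00 in Jak2WT against 0.672 and 0.676 in Jak2V617F. Within dKO clones it was 1.10 and 1.09 against 0.774 and 0.964.

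Cs, the citrate synthase that starts the cycle, and Fh1, the fumarase that hydrates fumarate to malate, were lower in dKO clones in both backgrounds by amounts that did not pass the test. Cs was at 41.7 and 44.4 FPKM in Jak2WT GLUT1/3 WT, 34.2 and 34.5 in Jak2WT dKO, 49.0 and 41.7 in Jak2V617F GLUT1/3 WT, and 32.8 and 40.1 in Jak2V617F dKO clones. Fh1 was at 30.9 and 36.6, 26.0 and 24.9, 29.95 and 27.7, and 21.5 and 24.6 FPKM in the same order. For both genes the dKO clones lay below the GLUT1/3 WT clones of their own background, and no contrast passed in the limma fit. The dKO log2 fold changes of Cs were -0.32 (95% interval -0.59 to -0.04, adjusted p = 0.117) in Jak2WT and -0.31 (95% interval -0.59 to -0.03, adjusted p = 0.0859) in Jak2V617F. Those of Fh1 were -0.39 (95% interval -0.64 to -0.14, adjusted p = 0.0545) and -0.31 (95% interval -0.56 to -0.06, adjusted p = 0.0665). In Jak2WT, scaling to the same summed FPKM brought both past the threshold (adjusted p = 0.0355 for Cs and 0.0164 for Fh1), with log2 fold changes of -0.41 and -0.49. With voom they passed too (adjusted p = 0.0279 and 0.0118), as did Cs in a fit on the 4 Jak2WT libraries alone (adjusted p = 0.0368), and Fh1 with the median ratio (adjusted p = 0.0378) or without either Jak2V617F dKO clone (adjusted p = 0.0463). In Jak2V617F, Cs passed without dKO clone 3 (-0.45, adjusted p = 0.0362), while it was -0.17 without dKO clone 1 (adjusted p = 0.3296). Fh1 also passed as lower in Jak2V617F than in Jak2WT GLUT1/3 WT clones with the same summed FPKM (-0.36, adjusted p = 0.0211) and with voom (-0.32, adjusted p = 0.0327).

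Mdh2, the malate dehydrogenase that regenerates oxaloacetate, had the highest levels of the 9. It had 69.1 and 78.2 FPKM in Jak2WT GLUT1/3 WT, 67.9 and 75.9 in Jak2WT dKO, 63.9 and 54.6 in Jak2V617F GLUT1/3 WT, and 56.8 and 52.0 in Jak2V617F dKO clones. All 4 Jak2V617F clones lay below all 4 Jak2WT clones, and within each background the 2 genotypes overlapped. The Jak2V617F contrasts were -0.31 in GLUT1/3 WT clones (95% interval -0.58 to -0.05, adjusted p = 0.0756) and -0.40 in dKO clones (95% interval -0.66 to -0.13, adjusted p = 0.0527), so neither passed. The former was -0.20 without Jak2V617F GLUT1/3 WT clone 3 (adjusted p = 0.284). Scaled to the same summed FPKM, both passed, at -0.46 (adjusted p = 0.00977) and -0.36 (adjusted p = 0.0422), as they did with voom (adjusted p = 0.00797 and 0.0242), and without Jak2V617F GLUT1/3 WT clone 1 or clone 3 the dKO contrast passed too (adjusted p = 0.0467 and 0.0465).

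Across the 8 libraries the 9 genes did not share 1 pattern. Of 36 gene pairs, 23 had a Pearson r above 0, with a median of 0.27, from 0.91 for Cs with Sucla2 to -0.80 for Idh3g with Ogdh. These correlations describe 8 libraries in 4 groups and share their groups and depth. The tested genes whose log2 levels were most like the mean of the 9 over these 8 libraries were Tmem14c (r = 0.97), Anks1, Gpr137, Srebf2 and Bex3 (r = 0.96).

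**Figure D4:**
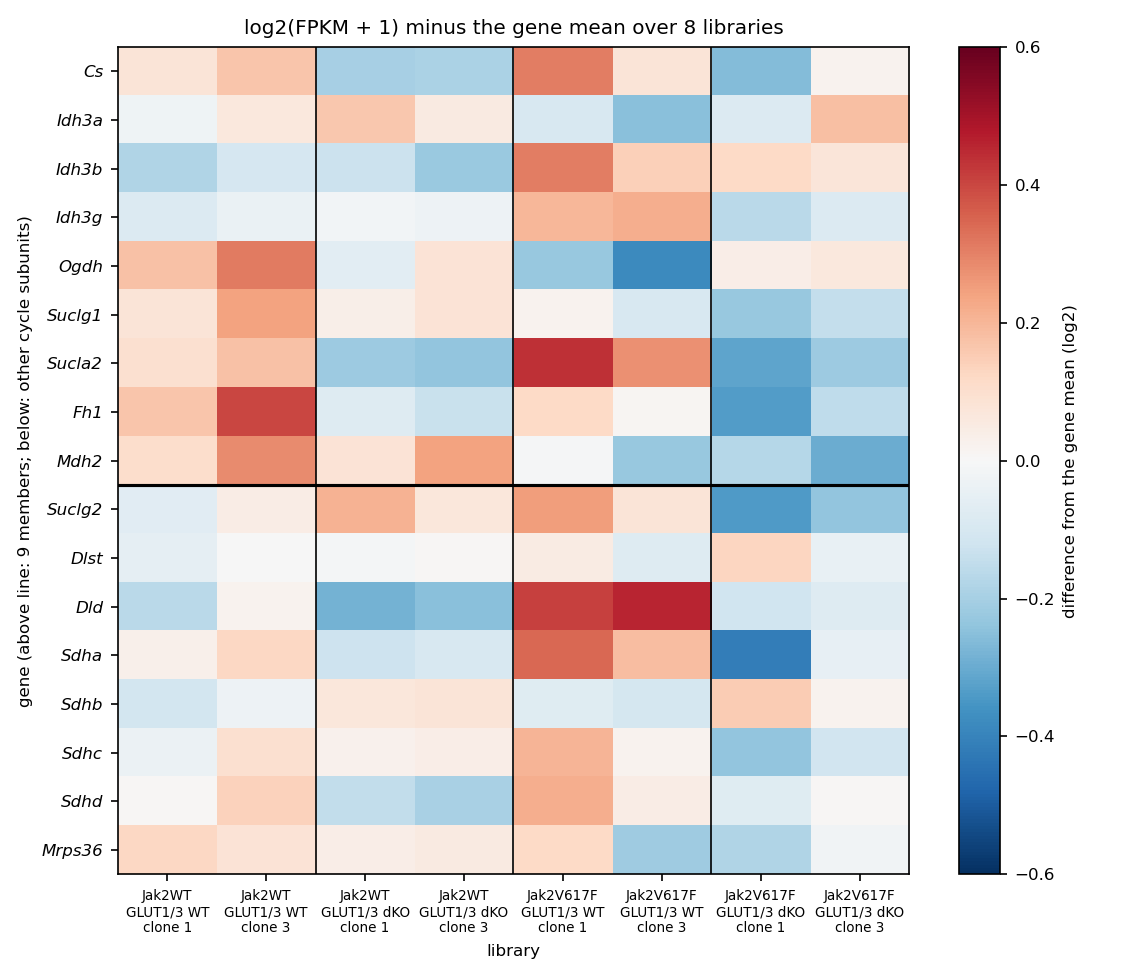
log2(FPKM + 1) minus each gene's mean over the 8 libraries (colour, from -0.6 to 0.6) for the 9 enzyme genes above the line and 8 other subunits of the cycle below it, with libraries on the x axis. Sucla2, Idh3b, Idh3g, Dld and Sdha have their highest values, and Idh3a and Ogdh their lowest, in the columns of the Jak2V617F GLUT1/3 WT clones. Every column holds genes above and genes below their mean.

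Of 8 other cycle subunits, 0 were called with the knockout in Jak2WT (2 had an unadjusted limma p under 0.05) and 3 fell in Jak2V617F, beside 13.7% and 29.9% of all tested genes called. The median log2 fold changes were -0.03 and -0.23, beside 0.01 and -0.02 over all tested genes. The medians of the 9 enzymes themselves were -0.10 and -0.15. Those called in Jak2V617F were Suclg2, Dld and Sdha, the flavoprotein subunit of succinate dehydrogenase. Sdha fell by 0.50 on the log2 scale (adjusted p = 0.0245), with a log2 fold change of -0.31 without dKO clone 1. The Sdha call was lost without GLUT1/3 WT clone 1 or dKO clone 1 of that background (adjusted p of up to 0.114), with no filter (adjusted p = 0.0728) and in a fit on the 4 Jak2V617F libraries alone (adjusted p = 0.0958). The other succinate dehydrogenase subunits Sdhb, Sdhc and Sdhd were not called in any contrast of the limma fit. Between the Jak2 backgrounds, Dld was higher in Jak2V617F among GLUT1/3 WT clones and Suclg2 was lower among dKO clones, the latter by -0.43 (adjusted p = 0.0258) and lost without either Jak2WT dKO clone or Jak2V617F dKO clone 1 (adjusted p of up to 0.156), with no filter (adjusted p = 0.0565) and in a fit on the dKO libraries alone (adjusted p = 0.0601).

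Other enzymes catalyse the same or neighbouring reactions outside the core of the cycle. Of 10 paralogs and counterparts, 5 were tested, and 2 of them fell with the knockout in Jak2WT and 3 in Jak2V617F, beside 13.7% and 29.9% of all tested genes called. In Jak2V617F 3 of the 5 were lower than in Jak2WT among GLUT1/3 WT clones and 2 among dKO clones, beside 30.3% and 17.1%. The 3 were Idh1, Idh2 and the cytosolic malic enzyme Me1, and each lost its call without Jak2WT GLUT1/3 WT clone 3 (adjusted p = 0.0553 to 0.123). Among dKO clones the Idh2 call held in all 18 alternative fits, and that of Idh1 (-0.48, adjusted p = 0.0489) held in 6 of 18, with -0.31 without Jak2WT dKO clone 1 (adjusted p = 0.242). Idh2, the NADP-dependent mitochondrial isocitrate dehydrogenase, had 43.4 and 52.0 FPKM in Jak2WT GLUT1/3 WT, 33.5 and 37.4 in Jak2WT dKO, 32.8 and 27.9 in Jak2V617F GLUT1/3 WT, and 19.5 and 19.4 in Jak2V617F dKO clones. It was lowest in the Jak2V617F dKO clones, falling by 0.61 on the log2 scale with the knockout in Jak2V617F (adjusted p = 0.00925). Me2, the mitochondrial malic enzyme that yields pyruvate from malate, fell by 0.64 with the knockout in Jak2V617F (adjusted p = 0.00304) and by 0.53 in Jak2WT (adjusted p = 0.0149), where the call was lost without any 1 of the 4 Jak2WT clones (adjusted p of up to 0.1003). Idh1, the cytosolic NADP-dependent enzyme, fell by 0.97 in Jak2WT and by 0.78 in Jak2V617F, and the Jak2WT call was lost without either GLUT1/3 WT clone (adjusted p of up to 0.0614). Ogdhl and Dhtkd1 stayed at or below 0.049 FPKM. Csl, Aco1 and Me3 were listed at 0 in all libraries, which was not read as absence.

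At the entry of the cycle, 2 of 11 tested genes for pyruvate uptake, pyruvate dehydrogenase and its regulators fell with the knockout in Jak2WT and 4 of 11 in Jak2V617F, with none rising, beside 13.7% and 29.9% of all tested genes called in either direction. Between the backgrounds 3 of the 11 were higher and 1 lower in Jak2V617F among GLUT1/3 WT clones, and 2 were higher among dKO clones, beside 30.3% and 17.1%. Pdk1, a kinase that inhibits pyruvate dehydrogenase, had 25.3 and 24.6 FPKM in Jak2WT GLUT1/3 WT, 11.3 and 10.7 in Jak2WT dKO, 37.4 and 34.9 in Jak2V617F GLUT1/3 WT, and 9.66 and 8.34 in Jak2V617F dKO clones. All 4 dKO clones were below all 4 GLUT1/3 WT clones, and Pdk1 fell by 1.11 on the log2 scale in Jak2WT (adjusted p = 0.00165) and by 1.90 in Jak2V617F (adjusted p = 0.000306). Pdha1 and Pdhb, the E1 subunits of pyruvate dehydrogenase, fell by 0.44 and 0.40 in Jak2V617F (adjusted p = 0.00908 and 0.00613), of which the Pdha1 call was lost in a fit on the 4 Jak2V617F libraries alone (adjusted p = 0.0531), and their log2 fold changes in Jak2WT were -0.01 and -0.24.

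Of 8 genes that feed or drain the cycle, 2 fell in Jak2WT dKO and 3 in Jak2V617F dKO clones, beside the same 13.7% and 29.9%. Between the backgrounds 2 were lower in Jak2V617F among GLUT1/3 WT clones and 3 among dKO clones, beside 30.3% and 17.1%. Gpt2, the mitochondrial alanine aminotransferase, fell by 1.85 on the log2 scale in Jak2V617F (adjusted p = 0.000383) and by 0.79 in Jak2WT (adjusted p = 0.0118), where the call was lost without any 1 of the 4 Jak2WT clones (adjusted p of up to 0.0836). Pck2, the mitochondrial phosphoenolpyruvate carboxykinase, fell by 1.22 in Jak2V617F (adjusted p = 0.00150) and had a log2 fold change of -0.06 in Jak2WT. Pcx, the pyruvate carboxylase that forms oxaloacetate, had 20.0 and 19.6 FPKM in Jak2WT GLUT1/3 WT and 11.1 and 10.9 in Jak2V617F GLUT1/3 WT clones, and was lower by -0.80 in the latter (adjusted p = 0.00119). Like Ogdh, Pcx was lowest in the Jak2V617F GLUT1/3 WT clones. Of 5 carriers of cycle intermediates, 1 fell in Jak2WT dKO, and 1 rose and 1 fell in Jak2V617F dKO, again beside 13.7% and 29.9%. Between the backgrounds 1 was higher and 3 were lower in Jak2V617F among GLUT1/3 WT clones, and 1 was higher and 1 lower among dKO clones, beside 30.3% and 17.1%. Slc25a10, the dicarboxylate carrier, rose by 1.05 with the knockout in Jak2V617F (adjusted p = 0.00490) from 2.64 and 2.04 FPKM to 5.26 and 6.54.

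Lipoylation attaches the cofactor that the E2 subunits of both dehydrogenase complexes need. Of its 3 genes, 0 were called in Jak2WT dKO (2 had an unadjusted limma p under 0.05) and 1, the lipoate synthase Lias, in Jak2V617F dKO, where it fell by 0.33 on the log2 scale (adjusted p = 0.0490), beside 13.7% and 29.9% of all tested genes called. The Lias call held without Jak2V617F dKO clone 1 and was lost without any 1 of the other 7 libraries (adjusted p of up to 0.200), and it was lost in 8 of 10 other settings (adjusted p of up to 0.138). Of 7 tested regulators of nuclear genes for mitochondria, 1 rose in Jak2WT dKO, and in Jak2V617F dKO 1 rose and 1 fell, shares near those of all genes. The one that fell was Esrra, an orphan nuclear receptor, which fell by 0.47 (adjusted p = 0.00679), a call lost in a fit on the 4 Jak2V617F libraries alone (adjusted p = 0.0539). Between GLUT1/3 WT clones of the 2 backgrounds 2 of these 7 were higher and 3 lower in Jak2V617F, beside 30.3% of all tested genes called, and in dKO clones 0 were called (1 had an unadjusted limma p under 0.05), beside 17.1%.

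The 250 bases before the RefSeq starts of the members were searched on both strands for letters that known regulators recognise. RefSeq entries (GRCm38.p6) matched 8 of the 9 genes in 13 windows, of which 6 belong to Ogdh and overlap in part. The letters GCGCANGC, the core bound by nuclear respiratory factor NRF1, occurred at 2 of 8 genes, against 8.30% of 32851 windows. The cyclic AMP response element TGACGTCA occurred at 2 of 8 genes, against 1.55% of windows, and the ETS letters CCGGAAG at 1, against 6.91%. The GC box GGGCGG was found at 5 of 8 (32.7% of windows), the hypoxia response letters ACGTG at 2 (16.6%) and GCGTG at 5 (28.2%), the E box CACGTG, which contains ACGTG, at 1 (6.02%), and AAGGTCA, letters recognised by estrogen-related receptors, at 0 (4.08%). The shares count windows and the members count genes, so the 2 are not on the same base. The stretches below hold every match among the members to letters found in under 10% of windows, with the match in capitals, read on the strand of the gene and located in GRCm39 by exact match.
Sucla2, NRF1 letters on the reverse strand, chr14:73790196-73790225, plus strand: caactgcgtctctgcGCCTGCGCggtgccc
Ogdh, response element, chr11:6241535-6241564, plus strand: acccaattctgTGACGTCAcgtcacgccca
Ogdh, E box at a downstream start, chr11:6242048-6242077, plus strand: gtcgcggcgtgtCACGTGgaccggtcgctc
Ogdh, NRF1 letters on the reverse strand at that start, chr11:6242096-6242125, plus strand: tcttttgtcctGCGTGCGCtgaccccagca
Ogdh, E box at a further start, chr11:6242405-6242434, plus strand: ggcaagaatcctCACGTGgataccatgtaa
Ogdh, NRF1 letters at that further start, chr11:6242528-6242557, plus strand: cgggctaggtgttgtGCGCATGCgtaactc
Idh3g, ETS letters, chrX:72830590-72830619, minus strand: gtgctctaggcaCCGGAAGggggcgtaaga
Mdh2, response element, chr5:135807365-135807394, plus strand: ggagagaatcgTGACGTCAggcctcgctcg
The stretches of Sucla2 and Mdh2 and the last 4 of Ogdh lie inside the span that the deposited table gives for the gene, and the others lie before it. The RefSeq start used for Sucla2 lies 27467 bases past the start of that span. All 250 bases of the Idh3g window lie in exons of Idh3g or the neighbouring gene Ssr4, so its match cannot be assigned to Idh3g alone. A match describes the letters only, and binding was not measured.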

How the data were processed

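PolyA-selected RNA of 8 clones was sequenced on an Illumina NovaSeq X Plus with paired reads. The authors trimmed reads with fastp (1.0.1), aligned them to mm39 with HISAT2 (2.2.1), counted reads per gene with featureCounts (2.0.6) and deposited FPKM values. The annotation version, the strand setting and the read total behind the FPKM are not given in the sources used here, so reads of overlapping or antisense genes cannot be told apart. From each deposited FPKM and gene length, whole reads were recovered for 100% of values within 0.01 of a whole number, with 16846011 to 48884329 reads per library. The 11818 genes that reached an FPKM of 1 in 2 or more libraries, of 25788 above 0, were fitted in limma (3.58.1, R 4.3.3) on log2(FPKM + 1), 1 mean per group, with an intensity trend (4 residual and 3.34 prior degrees of freedom) and Benjamini-Hochberg adjustment. A pseudocount understates changes of low genes. FPKM ratios were compared by exact permutation of all 8 libraries, not within background or genotype, in Python (3.11.15, scipy 1.17.1). The limma p-values set a group difference against the spread between clones, which is pooled over the 4 groups and moderated by the spread of all tested genes. Scripts were tested on simulated data. All 9 enzymes were described in every contrast, and other genes were named from lists of cycle-related genes and cell markers. Some items of these lists and of the samples' description are not reported here. The members, lists and contrasts were chosen with earlier results of these data known. Alternatives were no filter, a filter on the mean, a pseudocount of 0.1, 2 other scalings, voom on recovered reads, other moderation settings, fits on the compared groups only, a replicate block and leaving out each library.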

Additional observations from a re-analysis of the deposited data

Results flagged for a closer look

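The effect of the knockout differed between the Jak2 backgrounds, by the interaction in limma with Benjamini-Hochberg adjustment over 11818 genes, for 1 of the 9 enzymes, for 6 of 47 tested genes of the other cycle-related lists (12.8%) and for 2 of 5 tested myeloid progenitor markers, beside 10.6% of all tested genes. For Ogdh the log2 fold change was 0.59 higher in Jak2V617F than in Jak2WT (adjusted p = 0.0362), and the call was lost whichever clone was left out (adjusted p of up to 0.132). The difference was -0.60 for Suclg2 (adjusted p = 0.0379), -0.78 for Pdk1 (adjusted p = 0.0171), -1.16 for Pck2 (adjusted p = 0.0199), -1.06 for Gpt2 (adjusted p = 0.0182), 0.65 for Pcx (adjusted p = 0.0216) and 1.20 for Slc25a10 (adjusted p = 0.0284). Each of these 6 cycle-related genes lost its call without either Jak2WT GLUT1/3 WT clone and without Jak2WT dKO clone 1, with adjusted p of up to 0.138, 0.0799, 0.0829, 0.0803, 0.0926 and 0.111. With no filter on low values the call was lost for Ogdh, Suclg2, Pck2, Gpt2, Pcx and Slc25a10 (adjusted p = 0.0514 to 0.0965). Suclg2, Pck2, Pcx and Slc25a10 also lost theirs without Jak2WT dKO clone 3. Without a Jak2V617F clone, the call was lost for Suclg2 (clone 1 of either genotype), Pdk1 (GLUT1/3 WT clone 1), Pck2 and Pcx (either GLUT1/3 WT clone) and Slc25a10 (either GLUT1/3 WT clone or dKO clone 3). Of the myeloid progenitor markers, Csf2rb differed by -0.87 (adjusted p = 0.0401), a call lost without any 1 library but Jak2WT dKO clone 3 (adjusted p of up to 0.131), with no filter, with the same summed FPKM and with no intensity trend. Ptprc differed by -1.14 (adjusted p = 0.0124), lost without Jak2WT GLUT1/3 WT clone 3 or Jak2WT dKO clone 1 (adjusted p of up to 0.0626).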

How the results depend on the processing

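Among the enzyme contrasts, the fall of Sucla2 with the knockout in Jak2V617F and the lower Ogdh level in Jak2V617F GLUT1/3 WT clones kept their calls in all 18 alternatives. The number of the 9 enzymes called in Jak2WT dKO clones was 0 with no filter on low values, 0 with a replicate block, 2 with the median-ratio scaling, 2 in a fit on the compared groups, 4 when scaled to the same summed FPKM and 4 with voom on recovered reads, beside 1. In Jak2V617F dKO clones it was 1 in a fit on the compared groups, 2 with no filter, 4 with the same total and 4 with voom, beside 3. Between Jak2V617F and Jak2WT it was 6 with the same total and 6 with voom in GLUT1/3 WT clones, beside 3, and 2 with the same total, 1 with the median ratio and 2 with voom in dKO clones, beside 0. In the interaction it was 0 with no filter, 0 with no intensity trend and 0 with the replicate block. Leaving out 1 library gave 0 to 2, 2 to 3, 1 to 3 and 0 to 1 in the 4 contrasts and 0 in every interaction fit.

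Over all genes, calls in Jak2WT dKO clones were 714 with no filter and 2605 with voom, beside 1617, and 110 to 1974 with 1 library left out. In Jak2V617F dKO clones they were 1617 in a fit on the compared groups, beside 3533, and 2131 to 2985 with 1 library left out. Between the backgrounds they were 1583 to 3969 in GLUT1/3 WT clones with 1 library left out, beside 3577, and in dKO clones 1028 in a fit on the compared groups and 620 to 1992 with 1 library left out, beside 2019. The interaction gave 346 with no filter, 1896 with voom and 5 to 1256 with 1 library left out, beside 1256. Fewer samples in a fit and more genes adjusted over are part of how those alternatives are built, and the cause of the other changes was not tested.

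Scaling to the same summed FPKM and voom moved the median log2 fold change of all genes by -0.13 and -0.11 between Jak2V617F and Jak2WT GLUT1/3 WT clones and by 0.16 and 0.15 in the interaction, so enzyme values under them are relative to that shift. The share of calls that were higher went from 50.7% to 29.4% and 34.5% in the former, from 44.4% to 75.0% and 69.7% in the interaction, from 55.7% to 33.9% and 39.1% in Jak2WT dKO and from 45.7% to 60.2% and 59.2% in Jak2V617F dKO clones.

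Direction turned only for enzyme values that were not called. With the same total and with voom, in that order, these were Cs between the backgrounds in GLUT1/3 WT clones (-0.081 and -0.037), Idh3g in Jak2WT dKO (-0.059 and -0.022) and the interactions of Idh3b (0.094 and 0.061), Suclg1 (0.14 and 0.094) and Mdh2 (0.11 and 0.068). Idh3a in Jak2WT dKO was -0.0056 with the same total, and Sucla2 between the backgrounds in dKO clones was 0.0018 with voom. With 1 library left out, values spanned zero for Idh3b (-0.079 to 0.012) and Mdh2 (-0.12 to 0.054) in Jak2WT dKO, for Cs between the backgrounds in GLUT1/3 WT clones (-0.043 to 0.18), and in dKO clones for Cs (-0.066 to 0.22), Idh3a (-0.19 to 0.071), Ogdh (-0.032 to 0.11) and Sucla2 (-0.088 to 0.0090). The interactions did so for Cs (-0.14 to 0.15), Idh3a (-0.0014 to 0.26), Fh1 (-0.040 to 0.20), Suclg1 (-0.13 to 0.035) and Mdh2 (-0.20 to 0.027), and the log2 ratio of Idh3b to Idh3g by genotype lay between -0.017 and 0.14.

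The clone numbers were treated as names and not as pairs. The differences between clone 1 and clone 3 correlated at -0.25 to 0.15 between groups, which cannot settle whether libraries of the same number share a batch. With the replicate block, Sucla2 in Jak2WT dKO (adjusted p = 0.0573) and the Ogdh interaction (adjusted p = 0.0551) lost their calls. The number of clones, 2 a group, limits every contrast.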
